A study of Mus musculus with 6 samples.

Results

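The genes described here encode the subunits of the mitochondrial respiratory chain and of ATP synthase. They were chosen by symbol, as genes whose name starts with Nduf, Sdha to Sdhd, Uqcr, Cox4, Cox5, Cox6, Cox7, Cox8 or Atp5, together with Cyc1 and Cycs, and which had a probe set naming them alone. This gave 91 of 20242 named genes, of which 34 belonged to complex I, 4 to complex II, 9 to complex III, 17 to complex IV, 14 to complex V, and 1 was cytochrome c. The other 12 match the prefixes but encode assembly factors, 8 Ndufaf and 4 Sdhaf genes, and were kept apart. Where a gene had several probe sets, the one with the highest mean over the 6 arrays stood for it.

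RNA came from the livers of 6 male mice of the C57BL/6 background, each fasted for 24 hours and each measured on 1 exon array. In the 3 knockout mice (Cpt2KO, Albumin-Cre; Cpt2f/f) the floxed Cpt2 gene is removed where the albumin promoter drives Cre, that is in hepatocytes. The 3 controls (WT) carried the floxed alleles without Cre, so no group had unmodified Cpt2 alleles and no group carried Cre alone. Ages are listed as 9, 10 and 11 weeks for WT replicates 1, 2 and 3 and as 12, 13 and 14 weeks for Cpt2KO replicates 1, 2 and 3, while the growth protocol gives 9 weeks for all mice. Every listed knockout age lies above every listed control age.

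The respiratory chain passes electrons from NADH (complex I) or succinate (complex II) to coenzyme Q, then through complex III, the mobile carrier cytochrome c and complex IV to oxygen, and complex V uses the proton gradient so formed to make ATP. Most subunits are encoded in the nucleus and a small core in mitochondrial DNA. In the fasting liver, beta-oxidation of fatty acids, for which Cpt2 is needed, is a main source of the electrons. The comparison asks whether nuclear genes for this machinery are expressed at another level when hepatocytes lack Cpt2.

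In the knockout livers the subunit genes as a group stayed close to their control values. Of the 91, 1 rose and 1 fell at an adjusted p under 0.05, where 8.24% of all genes passed, 4.74% higher and 3.49% lower. The gene that rose was Cycs, cytochrome c, and the gene that fell was Ndufv3, an accessory subunit of the NADH-oxidising tip of complex I. Fold changes of all 91 lay between -0.61 and 0.49 on the log2 scale, and their median was -0.03, beside -0.01 over all genes. The groups did not overlap in 15 of the 91 genes (16.5%), 8 of them higher and 7 lower in the knockouts, against 25.1% of all genes (13.9% higher and 11.1% lower). An unadjusted p under 0.05 was found in 9 of the 91 (9.89%), 4 higher and 5 lower, compared with 20.2% of all genes, of which 11.3% were higher and 8.87% lower.

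The size of change that these data leave room for was small for most members. The 95% interval of the difference lay wholly between -0.5 and 0.5 on the log2 scale in 77 of 91 members (84.6%), compared with 65.4% of all genes. It lay between -1 and 1 in 90 of 91, the exception being Ndufs6b. Standard errors of the members ran from 0.09 to 0.24 with a median of 0.11, and the smallest difference among the called genes was 0.356.

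**Figure D1:**
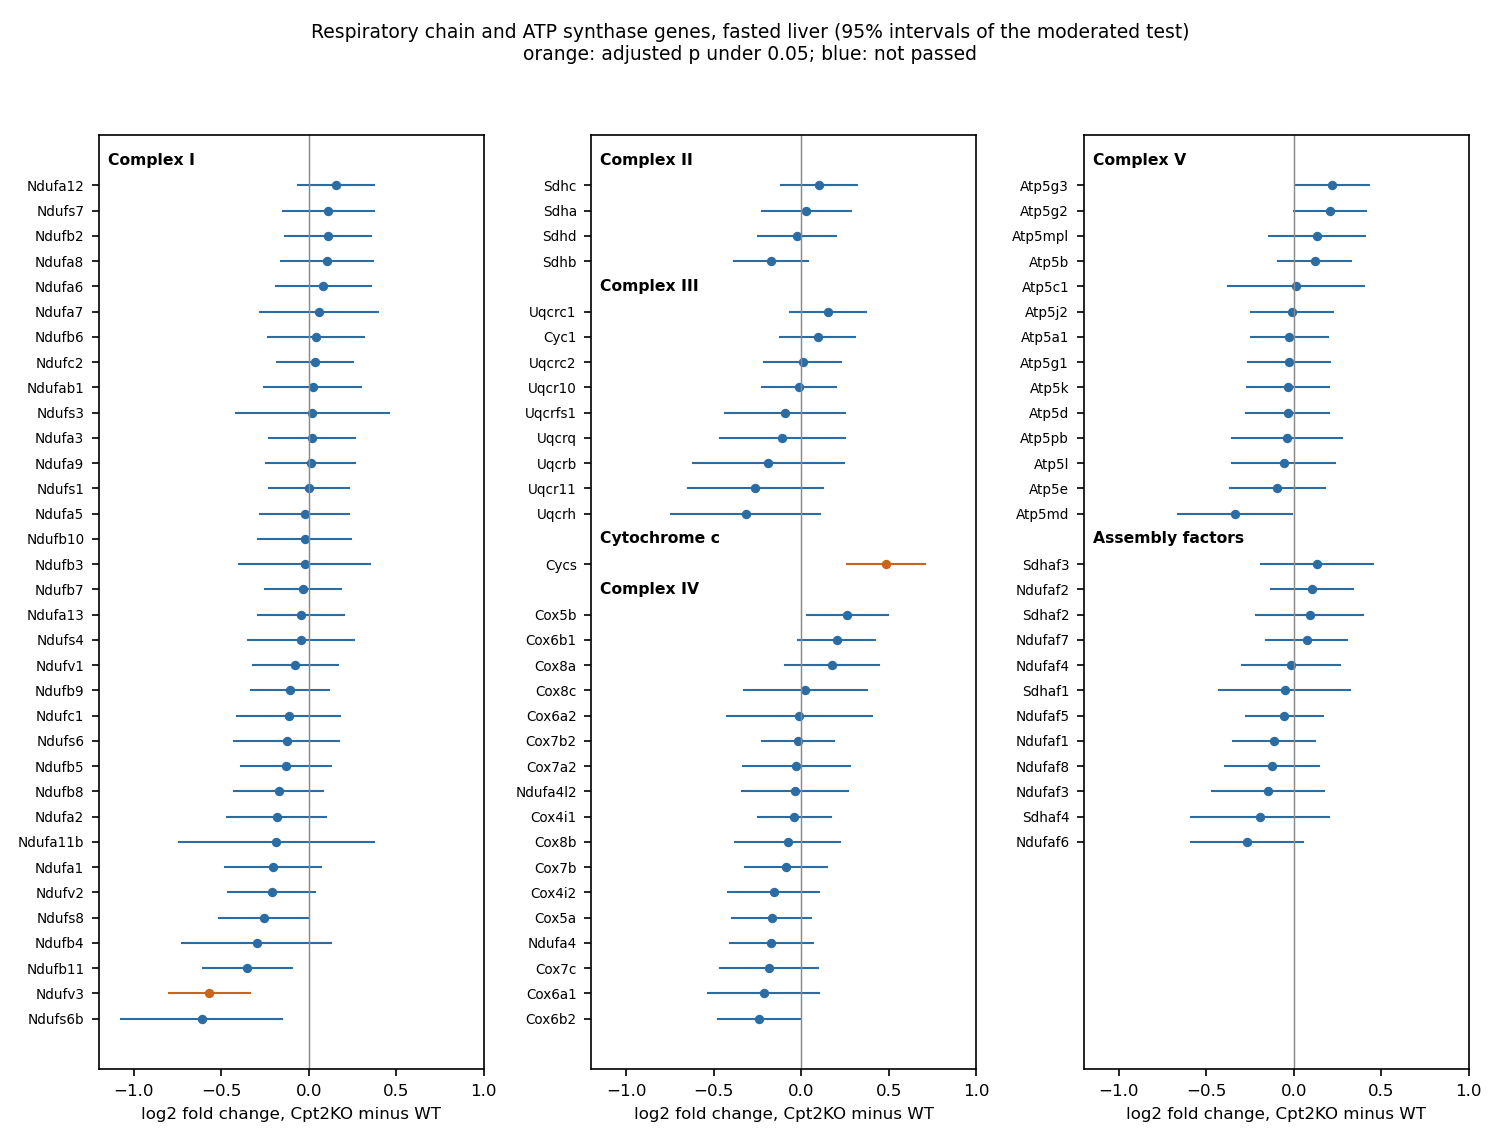
Log2 fold change (Cpt2KO minus WT, horizontal axis) of each of the 91 genes with its 95% interval, grouped by complex; orange marks adjusted p under 0.05 and blue the genes that did not pass. Cycs at 0.49 and Ndufv3 at -0.57 are the only orange points, and most intervals cross 0.

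Deletion itself was visible in the labelled groups. Cpt2 read 7.56, 7.72 and 7.63 in WT against 6.48, 6.73 and 6.75 in Cpt2KO, a difference of -0.99 (adjusted p = 0.0013). Arrays correlated at r = 0.985 to 0.989 within a group and 0.969 to 0.977 between the groups over all genes. At an adjusted p under 0.05, 4.74% of all genes rose and 3.49% fell. Of 4 measured hepatocyte markers 3 fell (Alb by 0.69, Ttr by 0.51 and Fga by 0.93 on the log2 scale), and Cps1 read -0.14. Summed over the 4, their level was 13.2 to 13.4 in WT and 12.7 to 13.0 in Cpt2KO on the log2 scale. Of 7 macrophage markers, Cd68 rose by 2.32 and Marco fell by 0.52. Cd68 was the only one of the 7 with a higher mean in the knockouts. The other 5 ranged from -0.49 (Timd4) to -0.15 (Cd5l) and did not pass, among them Clec4f at -0.28 and Adgre1 at -0.41. The level summed over all 7 was 9.27 to 9.80 in WT and 9.74 to 10.3 in Cpt2KO. Of 5 endothelial markers 1 rose, Lyve1 by 0.92 (adjusted p = 0.00183), and 0 fell. The other 4 ranged from -0.20 (Kdr) to 0.03 (Pecam1). The part of these shifts in the subunit values was not tested, and in whole liver RNA fewer cells of a type and less RNA per cell cannot be told apart.

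Cytochrome c is the small soluble protein that carries electrons from complex III to complex IV and triggers caspase activation when it leaves the mitochondrion. Cycs read 10.74, 10.86 and 10.70 in WT and 11.17, 11.31 and 11.28 in Cpt2KO. Each knockout liver lay above each control liver. The mean rose by 0.49 on the log2 scale (SE 0.10, 95% interval 0.26 to 0.71), a 1.40-fold increase with adjusted p = 0.0181. The call was lost without WT replicate 1 (adjusted p = 0.069), WT replicate 3 (0.0792), Cpt2KO replicate 2 (0.0609) or Cpt2KO replicate 3 (0.0502), although the difference itself stayed between 0.45 and 0.53 when single arrays were left out.

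Cycs was the member whose probe sets disagreed most. It had 7 that named it alone, with differences from -0.24 to 0.74. The brightest showed the 0.49 given above. Those ranked 3 and 5 by mean value showed 0.74 and 0.47, again without overlap between the groups, whereas those ranked 2 and 4 showed -0.01 and 0.06. The 2 dimmest, at means of 3.41 and 1.94, showed -0.24 and 0.02. The mouse genome holds many processed copies of Cycs, and the files do not say which probe set reads the active gene. With all 7 averaged the difference was 0.22 (adjusted p = 0.365).

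**Figure D2:**
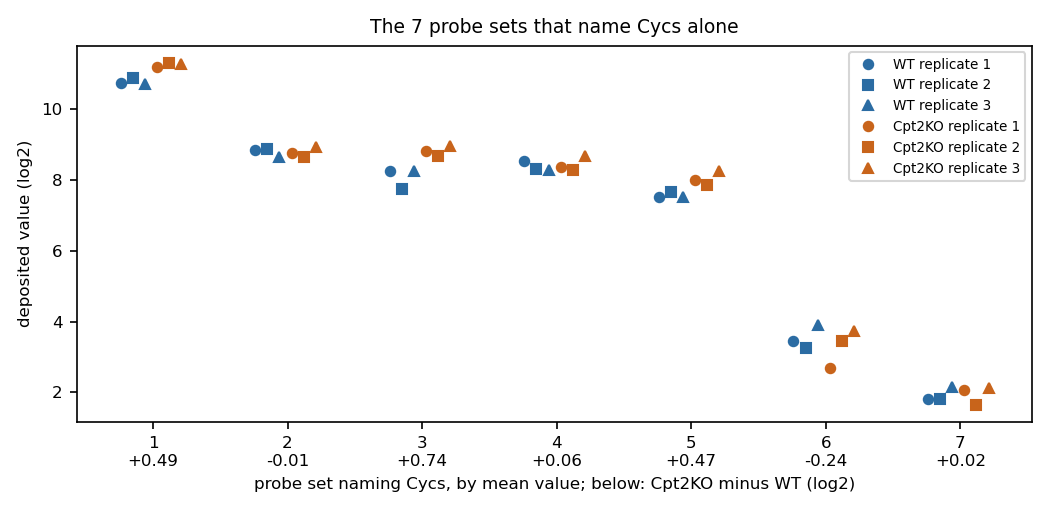
Deposited log2 values (vertical axis) of the 6 livers for each of the 7 probe sets naming Cycs, ordered by mean value, with the difference Cpt2KO minus WT printed under each. Probe sets 1, 3 and 5 hold all 3 knockout livers (orange) above all 3 controls (blue), and the other 4 do not.

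Ndufv3 belongs to the N module of complex I, the tip of the matrix arm where NADH binds, and is made in a short and a long form. The WT livers read 6.66, 6.53 and 6.52, and the Cpt2KO livers 6.07, 5.88 and 6.05. All control livers were above all knockout livers. Signal fell by 0.57 in log2 units (SE 0.10, 95% interval -0.80 to -0.34, adjusted p = 0.0106), leaving 67.4% of the control signal. It passed whichever of the 6 arrays was left out (adjusted p = 0.0269 to 0.0462). Its single probe set does not separate the forms.

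Both called genes lost the call when all 115050 probe sets were tested together (adjusted p = 0.316 for Cycs and 0.24 for Ndufv3) and when the variance was not moderated (0.0513 and 0.0517). In a fit with listed age, each had an adjusted p of 0.625, and differences of 0.44 for Cycs and -0.45 for Ndufv3. That fit called 83 of all 20242 genes. Since the listed ages of the groups do not overlap, age as listed and genotype cannot be told apart.

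The promoters of the called genes are shown here because cytochrome c has long served as the model promoter of this gene group. RefSeq promoter sequences (build GRCm38.p6, from 250 bases before to 50 bases after the gene start) matched 73 of the 91 genes. Capitals mark matches on either strand to the motifs spelled out below. Cycs lies on the minus strand at chr6:50566520-50566819 and Ndufv3 on the plus strand at chr17:31519865-31520164.
Cycs: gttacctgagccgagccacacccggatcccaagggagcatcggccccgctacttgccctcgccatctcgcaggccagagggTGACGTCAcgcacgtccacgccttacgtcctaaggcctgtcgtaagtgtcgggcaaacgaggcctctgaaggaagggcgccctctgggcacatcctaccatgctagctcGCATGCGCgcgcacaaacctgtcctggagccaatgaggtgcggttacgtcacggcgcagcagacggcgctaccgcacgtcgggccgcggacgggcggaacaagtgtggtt
Ndufv3: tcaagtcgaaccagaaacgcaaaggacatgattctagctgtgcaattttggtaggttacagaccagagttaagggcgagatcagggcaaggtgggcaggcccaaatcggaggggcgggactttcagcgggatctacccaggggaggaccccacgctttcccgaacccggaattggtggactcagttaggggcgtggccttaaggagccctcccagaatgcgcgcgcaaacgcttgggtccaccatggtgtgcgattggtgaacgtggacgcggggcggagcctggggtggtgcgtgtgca
In the Cycs window the cyclic AMP response element TGACGTCA, the site of CREB, starts 169 bases before the gene start, and the core GCATGCGC of the NRF1 site starts 60 bases before it. None of the 6 motifs searched was found in the Ndufv3 window.

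Several of these motifs were found in more of the members' windows than in promoters at large, without regard to how the genes moved. The NRF1 core GCATGCGC was in 12 of 73 members (16.4%) and in 3.05% of 27025 genes. The ETS motif CCGGAAG, bound by GABPA, was in 20 members (27.4%) and in 9.93% of genes, and the YY1 core AAGATGGC in 10 members (13.7%) and 3.19% of genes. TGACGTCA was in 3 members (4.11%) and 2.03% of genes, and the ESRRA half-site CAAGGTCA in 3 members (4.11%) and 1.76% of genes. The direct repeat of AGGTCA with 1 base between its copies, bound by PPARA with its partner RXR, was in 0 members and in 0.0481% of genes. Both strands were searched, motifs of different factors overlapped in 0 places in the members, and the members' windows were richer in G and C (58.0% against 53.8%).

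Complex I, the NADH dehydrogenase, is the largest assembly of the chain. Of its 34 genes 0 rose and 1 fell, Ndufv3, beside 4.74% and 3.49% of all genes. Differences of the 34 had a median of -0.04 and a range from -0.61 to 0.15. In the N module of 10 genes the median was -0.06. In the 4 measured genes assigned here to the Q module, which hands electrons to coenzyme Q, it was 0.00. In the 20 genes counted as membrane arm or other positions it was -0.04. Ndufa9, at 0.01, was counted among those 20 and not in the Q module. Groups stood apart in 4 lower genes (11.1% of all genes were lower by that rule) and 1 higher gene (13.9% of all genes).

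Below Ndufv3 in order of p came Ndufb11, an X-linked subunit of the membrane arm, with values of 6.22, 6.02 and 6.16 in WT and 5.65, 5.77 and 5.93 in Cpt2KO. The groups did not overlap, but the difference of -0.35 (95% interval -0.61 to -0.10) had an adjusted p of 0.105. After quantile normalization it was -0.41 with an adjusted p of 0.0279. Ndufs6b, annotated as a copy of Ndufs6, had the lowest difference of all members at -0.61 (adjusted p = 0.117), from 3.02, 3.84 and 3.66 to 2.96, 2.74 and 2.99. WT replicate 1 was close to the knockout values, and without it the difference was -0.86 with an adjusted p of 0.0104. These values lie near 2.88, the median of all deposited values, and a close copy such as Ndufs6 can share signal with it.

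Ndufs6 itself, the zinc-binding subunit of the N module, read -0.13 (95% interval -0.43 to 0.17). At the upper end of complex I stood Ndufa12 and Ndufs7, the latter a core subunit that carries the last iron-sulfur cluster before coenzyme Q. Ndufa12 read 6.86, 7.01 and 6.97 in WT and 7.06, 7.17 and 7.07 in Cpt2KO, a difference of 0.15 without overlap that did not pass (adjusted p = 0.445). Its other probe set went the opposite way, at -0.24, also without overlap. Ndufs7 differed by 0.11 (adjusted p = 0.704), and its groups overlapped. Among the core subunits that bind flavin or iron-sulfur clusters, Ndufv1 read -0.08, Ndufv2 -0.21, Ndufs1 0.00 and Ndufs8 -0.25, with adjusted p from 0.254 to 0.997.

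Complex II, succinate dehydrogenase, belongs to both the citric acid cycle and the chain. Its flavoprotein Sdha read 8.04, 8.18 and 8.12 in WT and 7.96, 8.21 and 8.26 in Cpt2KO, and the groups overlapped, with a difference of 0.03 (95% interval -0.23 to 0.28). The iron-sulfur subunit Sdhb read 7.004, 6.863 and 6.973 against 6.795, 6.786 and 6.739, and was lower in each knockout. Its difference of -0.17 (95% interval -0.38 to 0.04) did not pass (adjusted p = 0.357). The membrane anchors Sdhc and Sdhd differed by 0.10 and -0.03. For all 4 genes the interval excluded a change of 0.5 or more on the log2 scale in either direction.

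Complex III passes electrons from coenzyme Q to cytochrome c. None of its 9 genes passed in limma, where 8.24% of all genes did, and 0 had an unadjusted p under 0.05, where 20.2% did. A count over 9 genes is too small to set apart from these shares. The median of the 9 was -0.09. The core protein Uqcrc1 was higher in each knockout, at 7.11, 7.08 and 7.18 against 7.04, 6.87 and 7.02, by 0.15 (adjusted p = 0.457). The haem protein Cyc1, the direct electron donor of cytochrome c, differed by 0.09 (95% interval -0.12 to 0.31). At the lower end Uqcrh, the hinge protein, read 7.52, 7.04 and 7.15 in WT and 6.67, 6.81 and 7.29 in Cpt2KO, and Uqcr11 differed by -0.26. The spread within the groups was wide here, so that -0.32 for Uqcrh had a 95% interval from -0.74 to 0.11.

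Complex IV, cytochrome c oxidase, reduces oxygen, and several of its subunits exist in forms typical of one tissue. Ndufa4 and Ndufa4l2 were counted among its 17 genes because Ndufa4 is now placed in this complex. Of the 17, 0 passed by limma, with a median of -0.04. An unadjusted p under 0.05 was found in 2 (11.8%), compared with 20.2% of all genes. Cox5b, a zinc-binding nuclear subunit, came closest on the upper side. It read 9.77, 9.54 and 9.65 in WT and 9.86, 9.89 and 10.00 in Cpt2KO, without overlap, a difference of 0.26 (95% interval 0.03 to 0.50, adjusted p = 0.189). After quantile normalization the difference was 0.40 and passed (adjusted p = 0.0339). Its dimmer probe set read 0.17 with overlapping groups.

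Neither the general nor the tissue forms passed the test in any pair. For the regulatory subunit that binds ATP, the general form Cox4i1 differed by -0.04 (95% interval -0.25 to 0.17) and the lung and hypoxia form Cox4i2 by -0.16 (-0.42 to 0.10). The liver form Cox6a1 differed by -0.22 and the heart and muscle form Cox6a2 by -0.01. The other probe set of Cox6a1 read 0.03, and the difference of the first was -0.06 after quantile normalization and between -0.33 and -0.11 when single arrays were left out. Cox6b1 was higher in each knockout, by 0.20 (adjusted p = 0.294), and the testis form Cox6b2 lower in each, by -0.24 (adjusted p = 0.228). Cox8a, the liver form, differed by 0.18, Cox8b, the form of heart, muscle and brown fat, by -0.08, and Cox8c, a testis form, by 0.02.

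Cox7a2 differed by -0.03, Cox7b by -0.09 and its testis form Cox7b2 by -0.02. Ndufa4 differed by -0.17 and its hypoxia-induced relative Ndufa4l2 by -0.04, with overlapping groups in both. Several tissue forms read low, with WT means of 1.87 for Cox7b2, 3.07 for Cox8c, 3.49 for Cox8b, 3.76 for Ndufa4l2 and 3.98 for Cox4i2. The median of all deposited values was 2.88. Change tends to be understated where signal is dim, so small differences at such levels do not show that a form was unchanged. Of 4 measured striated muscle markers 0 passed by limma (8.24% of all genes did) and 0 had an unadjusted p under 0.05 (20.2% of all genes did). Their summed levels were 5.97 to 5.99 in WT and 5.74 to 6.14 in Cpt2KO. Among 6 adipocyte markers 1 rose, Pparg by 0.68, and 0 fell, beside 4.74% and 3.49% of all genes. The others did not pass. Ucp1, which defines brown fat, differed by 0.05, Cidea by 0.15, Lep by 0.04, Adipoq by -0.07 and Plin1 by -0.15.

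Complex V, the ATP synthase, couples a soluble catalytic head to a membrane rotor made of a ring of c subunits. Of its 14 genes 0 passed by limma, with a median of -0.03. An unadjusted p under 0.05 was found in 3 (21.4%), compared with 20.2% of all genes. The catalytic Atp5b read 8.90, 8.91 and 8.88 in WT and 8.94, 9.03 and 9.08 in Cpt2KO, higher in each knockout by 0.12 (95% interval -0.09 to 0.33, adjusted p = 0.564). Its partner in the head, Atp5a1, differed by -0.03. The 5 genes of the head ranged from -0.09 (Atp5e) to 0.12. The 9 genes of the membrane part and stalk ranged more widely, from -0.33 to 0.22.

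The c subunit is encoded by 3 genes, Atp5g1, Atp5g2 and Atp5g3, which make the same mature protein behind different import sequences. Atp5g1 read 11.21, 11.17 and 11.40 in WT and 11.19, 11.29 and 11.21 in Cpt2KO, with overlapping groups and a difference of -0.03 (95% interval -0.26 to 0.21). Atp5g2 read 9.76, 9.74 and 9.74 against 9.96, 10.03 and 9.88, and Atp5g3 read 7.38, 7.29 and 7.41 against 7.56, 7.56 and 7.62. Both were higher in each knockout liver, Atp5g2 by 0.21 (95% interval 0.00 to 0.42) and Atp5g3 by 0.22 (0.01 to 0.43), and neither passed (adjusted p = 0.248 and 0.217). The other probe set of Atp5g2 gave 0.23, again without overlap, and that of Atp5g1 gave -0.03. Whether the genes differ from each other in their response was not tested.

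Their promoter windows are shown because 1 protein is made from 3 unlike starts. All lie on the minus strand, Atp5g1 at chr11:96075582-96075881, Atp5g2 at chr15:102670998-102671297 and Atp5g3 at chr2:73911277-73911576 (RefSeq, GRCm38.p6), with motif matches in capitals as above.
Atp5g1: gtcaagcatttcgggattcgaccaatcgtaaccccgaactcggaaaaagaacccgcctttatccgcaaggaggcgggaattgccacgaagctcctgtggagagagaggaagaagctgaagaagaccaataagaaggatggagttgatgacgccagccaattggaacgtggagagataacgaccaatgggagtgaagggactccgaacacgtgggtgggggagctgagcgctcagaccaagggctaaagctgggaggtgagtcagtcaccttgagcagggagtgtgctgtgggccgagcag
Atp5g2: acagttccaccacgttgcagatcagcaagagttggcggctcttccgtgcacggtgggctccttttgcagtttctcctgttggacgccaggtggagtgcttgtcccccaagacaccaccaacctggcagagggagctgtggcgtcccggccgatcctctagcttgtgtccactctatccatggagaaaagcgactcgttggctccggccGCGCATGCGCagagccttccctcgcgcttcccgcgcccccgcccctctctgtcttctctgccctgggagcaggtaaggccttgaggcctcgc
Atp5g3: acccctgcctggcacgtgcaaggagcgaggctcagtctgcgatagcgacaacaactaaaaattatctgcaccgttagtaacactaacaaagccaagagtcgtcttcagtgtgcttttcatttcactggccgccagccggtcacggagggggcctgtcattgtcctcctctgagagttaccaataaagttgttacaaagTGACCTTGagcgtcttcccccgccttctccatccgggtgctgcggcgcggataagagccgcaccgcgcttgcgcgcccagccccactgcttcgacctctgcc
The Atp5g2 window holds the NRF1 core on both strands, in matches that overlap and start 42 and 40 bases before the gene start. The Atp5g3 window holds the ESRRA half-site on the other strand, as TGACCTTG, starting 52 bases before the gene start. The Atp5g1 window held none of the 6 motifs.

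On the lower side of complex V, Atp5md, a small membrane subunit linked to the pairing of ATP synthases, read 8.98, 8.88 and 9.04 in WT and 8.35, 8.66 and 8.89 in Cpt2KO. Cpt2KO replicate 3 reached the control range, so the groups overlapped. The difference was -0.33 (95% interval -0.66 to -0.01) with an adjusted p of 0.236, and its other 2 probe sets read -0.30, without overlap, and -0.15, with overlap.

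**Figure D3:**
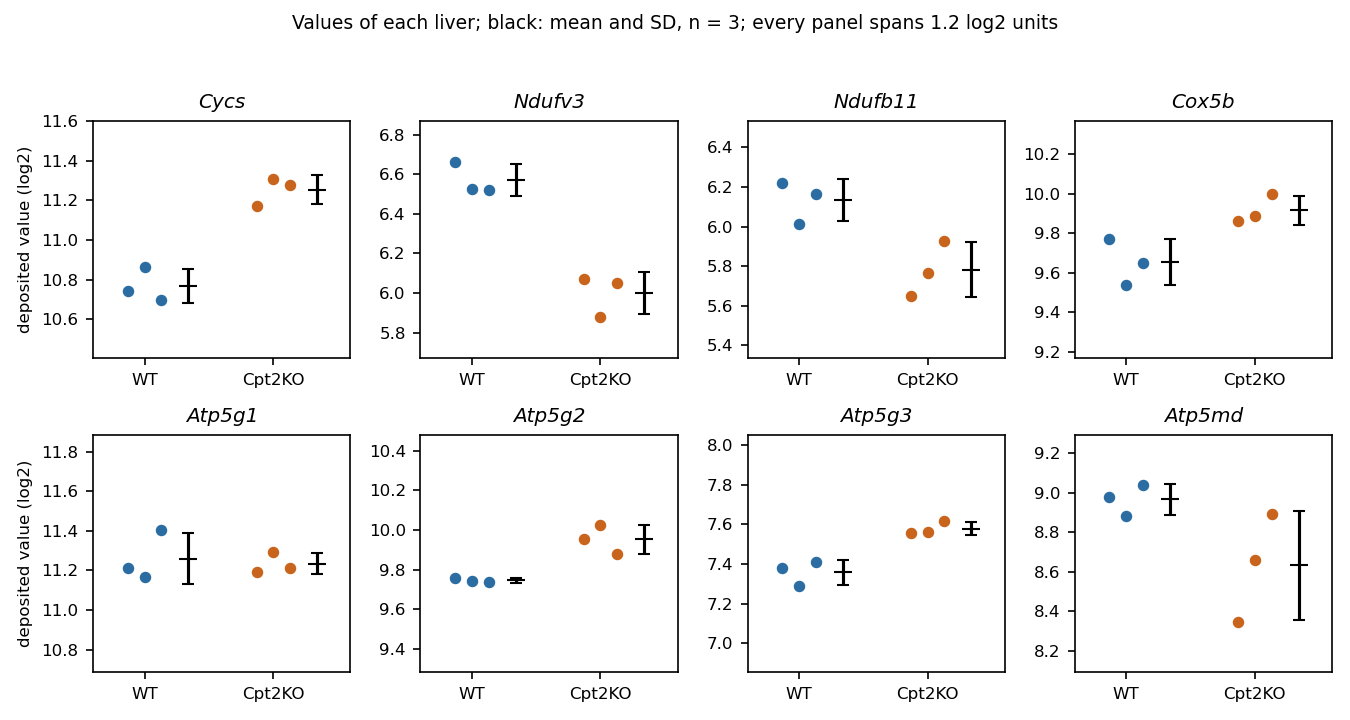
Deposited log2 values (vertical axis, 1.2 units in every panel) of 8 genes in the 3 WT (blue) and 3 Cpt2KO (orange) livers, with the mean and SD of each group (n = 3) in black. Groups stand apart for Cycs, Ndufv3, Ndufb11, Cox5b, Atp5g2 and Atp5g3 and overlap for Atp5g1 and Atp5md, and only Cycs and Ndufv3 passed the test.

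The 12 assembly factors with matching prefixes did not pass by limma either, where 8.24% of all genes did. Among them 0 had an unadjusted p under 0.05, where 20.2% of all genes did. Groups overlapped in all 12, whereas they did not overlap in 25.1% of all genes. The median of the 12 was -0.05. Ndufaf6 read 4.37, 4.13 and 3.96 in WT and 3.79, 3.77 and 4.09 in Cpt2KO, a difference of -0.27 (adjusted p = 0.357). Sdhaf4, a chaperone of the complex II flavoprotein, differed by -0.19, Ndufaf2, a chaperone of complex I, by 0.10 and Sdhaf3, which serves the iron-sulfur subunit of complex II, by 0.13.

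Of the 19 members with several probe sets, 11 had differences of the same sign in all of them and 8 did not. The probe sets of a gene differed by less than 0.2 in 11 of the 19.

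The knockout livers kept a similar order in many of the members. Cpt2KO replicate 3 held the highest of the 3 knockout values in 59 of 91 members (64.8%), against 32.1% of all genes, and Cpt2KO replicate 1 the lowest in 54 (59.3%), against 30.4%. Replicate 3 was highest in 28 of 34 genes of complex I and 7 of 9 of complex III. It was highest in 10 of 17 of complex IV and 9 of 14 of complex V. In complex II it was highest in 1 of 4 genes, and in 4 of 12 assembly factors. Replicate 1 was lowest in 20 of 34 genes of complex I, 2 of 4 of complex II and 8 of 9 of complex III. It was lowest in 9 of 17 of complex IV, 9 of 14 of complex V and 5 of 12 assembly factors. Averaged over the 91 genes, Cpt2KO replicates 1, 2 and 3 stood at -0.13, -0.05 and 0.03 from the control mean, and WT replicates at 0.03, -0.03 and 0.01. Over all genes the same means ran from -0.02 to 0.02. Of the 5 complexes, complex III spread most, with Cpt2KO replicates 1 and 3 at -0.24 and 0.10, and WT replicates between -0.11 and 0.07. In complex I the values of Cpt2KO replicates 1, 2 and 3 were -0.19, -0.12 and 0.04. In complex IV and the assembly factors replicate 3 stood at -0.02 and -0.04, below replicate 2 at -0.01 and -0.02, and in complex II both were at 0.00.

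This spread moved the medians of the groups of genes. Without Cpt2KO replicate 3 the median of complex I was -0.14 and that of all members -0.07. Without Cpt2KO replicate 1 the latter was 0.00. The median of complex III, -0.09 with all arrays, was -0.21 without Cpt2KO replicate 3, 0.01 without Cpt2KO replicate 1 and -0.03 without WT replicate 1. That of complex V was 0.02 without Cpt2KO replicate 1 and 0.02 without WT replicate 3. Complex IV had a median of -0.15 without Cpt2KO replicate 2 and -0.08 without Cpt2KO replicate 3. In the fit with listed age the median of the 91 was -0.16 and that of complex I -0.22, with 0 members passing in limma. Cpt2KO replicate 3 is also the mouse with the highest listed age, and the part of age in this spread was not tested.

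**Figure D4:**
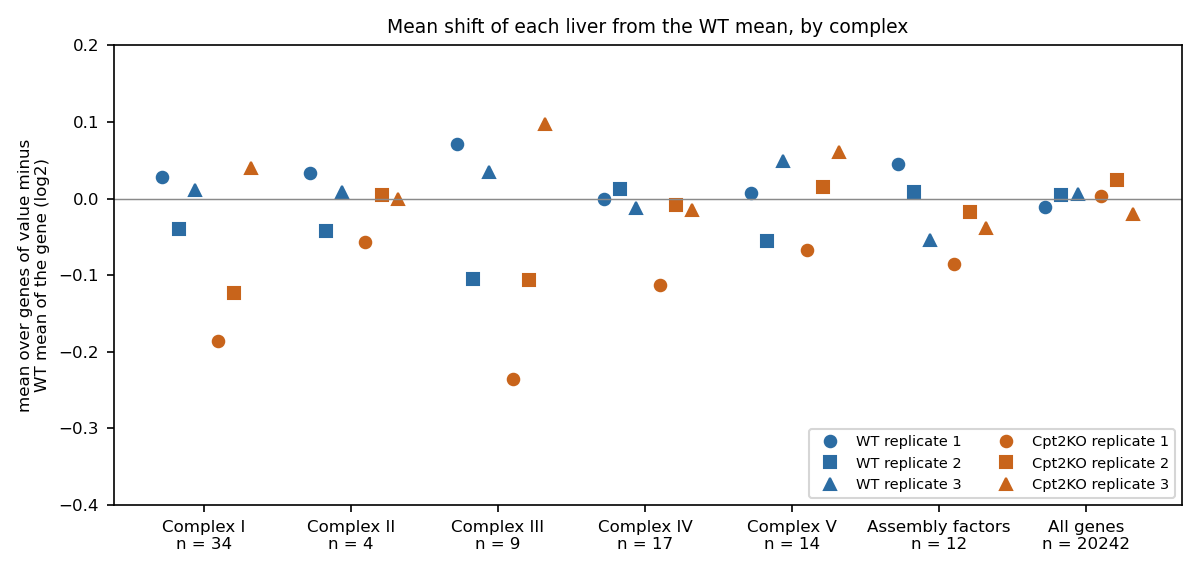
Mean over the genes of each complex of the value in a liver minus the WT mean of the gene (log2, vertical axis), 1 symbol per liver, blue for WT and orange for Cpt2KO, with all 20242 genes at the right. Cpt2KO replicate 1 (orange circle) lies lowest and replicate 3 (orange triangle) highest in complexes I, III and V.

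Of 8 measured genes that feed electrons to coenzyme Q beside complexes I and II, 2 rose and 2 fell. Over all genes 4.74% rose and 3.49% fell. Gpd2, the mitochondrial glycerol-3-phosphate dehydrogenase, read 6.86, 6.74 and 6.95 in WT and 7.98, 7.96 and 8.03 in Cpt2KO, a rise of 1.14 (2.21-fold, adjusted p = 0.000373). Averaged with its other probe sets the difference was 0.46 (adjusted p = 0.46). Etfdh, which passes electrons from beta-oxidation to coenzyme Q, rose by 0.39 (adjusted p = 0.044). That call lies near the threshold, and whether it holds with single arrays left out is not reported here. The donors of Etfdh, Etfa and Etfb, read -0.26 and 0.09 and did not pass. Prodh, which oxidises proline, fell by 1.05 (adjusted p = 0.00175) and Sqor, which oxidises sulfide, by 0.64 (adjusted p = 0.00677).

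In coenzyme Q synthesis 1 of 12 genes rose and 1 fell, beside 4.74% and 3.49% of all genes. Coq8a, an atypical kinase-like protein needed for the synthesis complex, read 7.44, 7.43 and 7.63 in WT and 6.27, 6.12 and 5.88 in Cpt2KO. All knockout livers were below the controls, and signal fell by 1.41 in log2 units (adjusted p = 0.000431), leaving 37.7% of the signal. Its relative Coq8b differed by 0.00 (95% interval -0.23 to 0.23). The hydroxylase Coq7 rose by 0.41 (adjusted p = 0.0458), a call lost whichever of the 6 arrays was left out (adjusted p = 0.0641 to 0.163). Averaged over its probe sets the difference was -0.01 (adjusted p = 0.983).

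Of 19 complex IV assembly factors 1 rose and 0 fell, beside 4.74% and 3.49% of all genes. The 1 was Cox19, a small copper-related factor. Cox19 went from 4.51, 4.92 and 4.69 to 5.80, 5.28 and 5.67, a rise of 0.88 (1.83-fold, adjusted p = 0.0129). Without Cpt2KO replicate 3 its adjusted p was 0.0532. The other 18 ranged from -0.26 to 0.26, among them the haem A enzymes Cox10 (0.02) and Cox15 (0.18). Factors for complex I (8 outside the prefixes), complexes II and III (6) and complex V (5) had 0 calls by limma. Each of these lists had 1 gene at an unadjusted p under 0.05, where 20.2% of all genes were. The largest differences in them were 0.37 for Lyrm2, -0.30 for Uqcc1 and 0.32 for Atpaf1.

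Among 13 measured regulators of respiratory chain genes 1 rose and 0 fell, beside 4.74% and 3.49% of all genes. The 1 was Pprc1, a coactivator of the PGC-1 family. Pprc1 went from 4.87, 4.84 and 4.75 to 5.21, 5.48 and 5.75, a rise of 0.66 (adjusted p = 0.0237). It did not pass without WT replicate 1, 2 or 3 or without Cpt2KO replicate 2 (adjusted p = 0.0604, 0.0723, 0.0837 and 0.0684). Ppargc1a, which encodes PGC-1alpha, read 5.71, 5.41 and 4.86 in WT and 4.95, 6.23 and 5.74 in Cpt2KO, with overlapping groups and a 95% interval from -0.43 to 1.05. The DNA-binding factors Nrf1 (0.10), Gabpa (-0.05), Yy1 (0.05) and Esrra (-0.15), and Tfam (-0.03), which packages mitochondrial DNA, did not pass, and their intervals excluded a change of 0.5 or more.

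Of 12 genes taken as markers of mitochondrial content and inner membrane 2 rose and 0 fell, beside 4.74% and 3.49% of all genes. Their median was 0.20. Groups stood apart in 6 of the 12, all higher in the knockouts, where 13.9% of all genes were. Phb, the prohibitin of the inner membrane, rose by 0.71 (adjusted p = 0.00301) and citrate synthase, Cs, by 0.62 (adjusted p = 0.00734). The other 4 that stood apart did not pass. They were the import proteins Tomm20 (0.48) and Timm23 (0.32), the second prohibitin Phb2 (0.24) and the ADP/ATP carrier Slc25a4 (0.24). The porins Vdac1, Vdac2 and Vdac3 read -0.43, 0.16 and 0.02, and the scaffold protein Immt read 0.06. Chchd3 and Opa1 read -0.19 and 0.00. The 13 genes encoded in mitochondrial DNA had no probe set of their own name in the annotation and were not analysed here.

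**Figure D5:**
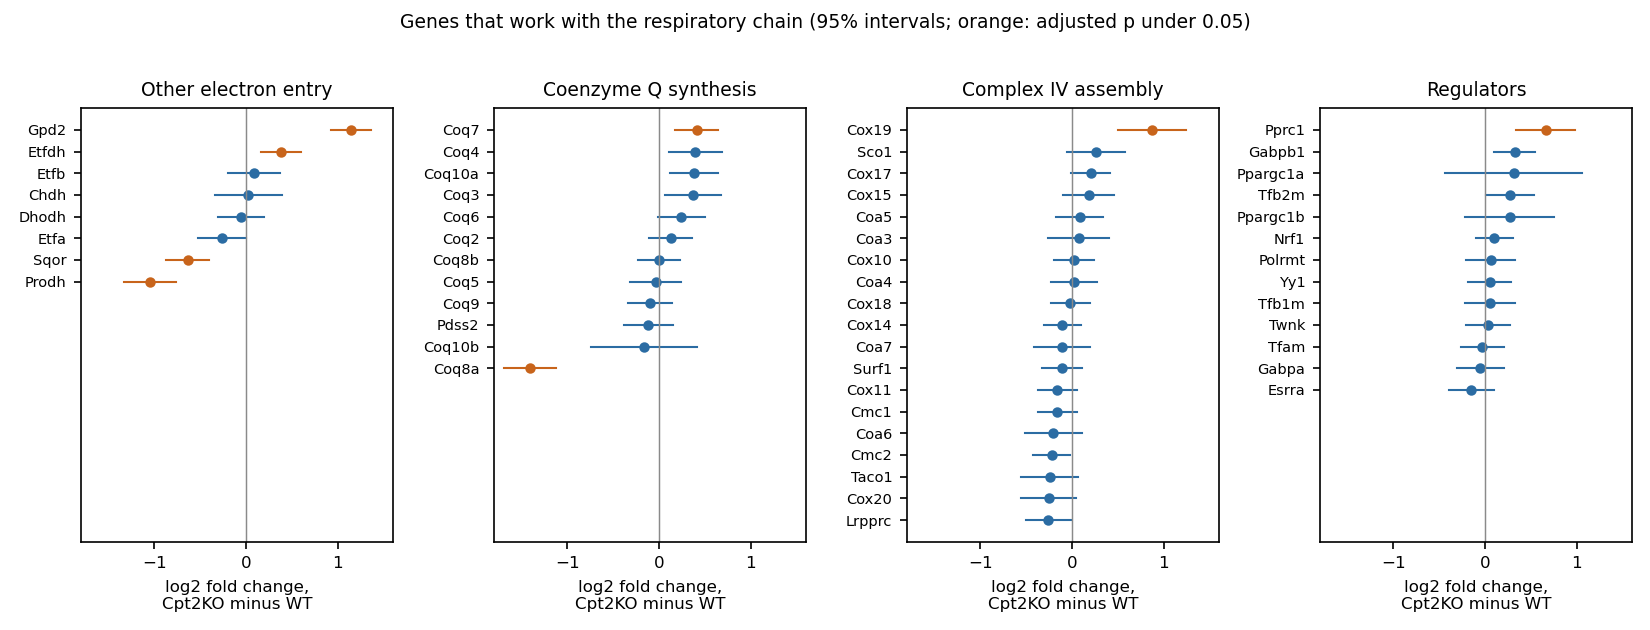
Log2 fold change (Cpt2KO minus WT, horizontal axis) with 95% intervals of genes of 4 lists that work with the chain; orange marks adjusted p under 0.05. Gpd2 and Etfdh lie above 0 and Sqor and Prodh below it, Coq8a is lowest at -1.41, and Cox19 and Pprc1 stand above the rest of their lists.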

How the data were processed

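Values were taken from the deposited table, 1 row per probe set and 1 column per array. The deposited values are log2 intensities, and the submitters' processing notes list Partek, RMA and mm9 with no version. RMA adjusts background, brings arrays to 1 distribution and combines the probes of a probe set, and it tends to understate change where signal is dim. Its options are not given here. Of 115050 probe sets 25469 named 1 gene in the platform annotation, and 2286 that named several were not used, which left out 10 symbols with these prefixes, among them Atp5h, Atp5j, Atp5o, Cox6c, Cox7a2l, Ndufa10, Ndufa11 and Ndufs5.

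The 3 Cpt2KO arrays were compared with the 3 WT arrays by a two-sided moderated test from limma 3.58.1 (lmFit, eBayes) under R 4.3.3, without covariates or a filter, with Benjamini-Hochberg adjustment over 20242 genes and a threshold of 0.05. SE and intervals are those of the moderated test, which had 4 residual and 4.23 prior degrees of freedom. The code was tested on simulated data. The number of arrays limits the precision.

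Members, lists and tests were chosen with earlier results of these data known. Named genes are members that passed, the 2 highest and 2 lowest of each complex, tissue isoforms, the 5 smallest p, up to 3 calls (or the largest change) per list, and Cpt2. The remaining genes with values, among them core subunits, Atp5b, Ndufs6, Etfdh and the markers, were chosen after their values were seen. Alternatives were quantile normalization, centring on medians, 2 filters on dim genes, averaged probe sets, every probe set, a trended robust prior, no moderation, weighted arrays, the replicate block, listed age, and leaving out each array.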

Additional observations from a re-analysis of the deposited data

How the results depend on the processing

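Of the 91 genes, 1 was called higher and 1 lower. Quantile normalization gave 2 and 2, averaging probe sets gave 0 and 1, and every probe set, unmoderated statistics and listed age each gave 0 and 0. Leaving out an array gave 0 to 1 higher and 1 to 2 lower. All genes gave 960 higher and 707 lower, against 90 and 99 where every probe set was tested, 388 and 264 with unmoderated statistics and 35 and 48 with listed age, and 538 to 722 and 477 to 631 without an array (538 higher without WT replicate 2 and 582 without WT replicate 3). With listed age as a covariate the medians were -0.16 for the members and -0.22, -0.054, -0.13 and -0.16 for complexes I, II, IV and V. Without an array they were -0.07 to 0.00 for the members, -0.14 to 0.012 for complex I, -0.026 to 0.035 for complex II, -0.21 to 0.014 for complex III, -0.15 to -0.023 for complex IV, -0.041 to 0.024 for complex V and -0.11 to -0.016 for the assembly factors. Cpt2 had a difference of -0.99 with every probe set (adjusted p = 0.0692) and -1.24 with listed age (0.0753), and passed in the other 15 alternatives. Averaging probe sets turned Coq7 from 0.411 to -0.0115 (adjusted p = 0.983). For 50 other named genes, 790 of 840 values under the alternatives kept their side of the threshold, 46 lost the call in the same direction, 3 gained it, and 1, that of Coq7, lost it with its sign turned. Among the values called in neither the main fit nor the alternative, the sign differed in 34. Replicate numbers were not used as pairs in the main fit. Deviations of same-numbered livers from their group means correlated at 0.0715, 0.183 and -0.0816. Not every liver correlated best with its own number. With 3 livers per group these values cannot show whether the mice were paired. The replicate block gave 1 member higher and 1 lower, with 760 genes higher and 624 lower in all, and a median of -0.03 for the members. Background signal was not used here, so no gene is called present or absent.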
